A study of Rattus norvegicus with 16 samples.

Results

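The 105 nuclear genes described here span at least 500 kb (kilobases) of the rat genome from their first to their last exon base. The tissue was the nucleus basalis of Meynert, which lies in the basal forebrain and holds the acetylcholine-releasing neurons that reach the cortex. The members are all genes on chromosomes 1 to 20 with such a span and with 160 or more counts summed over the 16 libraries, of 32883 genes in the files and 14158 nuclear genes tested. The rule used no expression value beyond the count minimum, but it was chosen with earlier results of these data known. Of 112 genes with such a span, 7 had only 1 to 126 summed counts and were left out, and the lowest member had 284. At the span threshold, the shortest member measured 500081 bases and the longest gene outside 499516 bases. All 105 passed the filter on low counts, and none had 0 counts in any library.

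The rats were Long Evans animals of at least 70 days that carry ChAT::Cre, a transgene that places Cre recombinase in cells expressing choline acetyltransferase, in stressed and control rats alike. The 4 groups were stressed females (FS), control females (FC), stressed males (MS) and control males (MC), with 4 libraries each. The study's title names stress regulation of sustained attention, and the labels used here give no stress procedure. No label says that each library came from its own animal, so every p-value measures the spread between these libraries, which may be technical.

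A gene of this size consists almost wholly of introns, which are transcribed and then removed, so a single transcript takes hours to complete. In neurons many of the longest genes code for cell adhesion molecules, ion channels, receptors and scaffold proteins of the synapse, and their transcription is known to depend on topoisomerases, the enzymes that relieve twisting of the DNA ahead of the polymerase. The files hold Ensembl identifiers and no gene names, and 0 identifiers matched the name table of 47357 genes. Roles of single members, the labelled tissue's marker genes and the genes of the transcription machinery could therefore not be given. Members are named by identifier or by 1-based position in Rnor_6.0.

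The libraries held 5.86 to 22.6 M (mega) nuclear counts. Of all gene counts, 64.2% to 82.5% were mitochondrial and were left out, so each level below is a TMM-scaled count per M nuclear counts (CPM). The 3 libraries female control 4, male stress 1 and male control 4 were counted with featureCounts and the other 13 have the layout of HTSeq. The 3 held 12.9 to 22.6 M nuclear counts and the other 13 held 5.86 to 10.2 M. As featureCounts was run without a paired-end option, counts of the tools may differ in unit, so the range is not one of depth alone.

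Introns made up nearly all of each member's length. Their median span was 652 kb (500 to 6361 kb), against 21.7 kb over all genes tested. The median exon length was 4.37 kb (0.736 to 23.0 kb), against 2.41 kb. Exons thus made up 0.623% of the span of the median member, and at most 3.99%. The median member had 23 separate exon blocks (3 to 111) against 9, and its longest gap between blocks was 164 kb. Span was nearly unrelated to exon length among the 105 (Spearman -0.14 across genes, a description).

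In 5 members a single gap made up over 80% of the span, so their place among the members rests on how the annotation joins distant exons. The widest member, on chromosome 15 at 87506959 to 93868301, spanned 6361 kb with a gap of 6138 kb, and 34 other annotated genes lay inside it. A chromosome 15 gene at 104448600 to 105254214, chosen after its values were seen, had 3 exon blocks, and its longest gap was 99.8% of the span. Without their longest gap, 41 of the 105 members would still span 500 kb.

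Other genes lay inside 66 of the 105 members, 233 in all. Only 7 members share exon bases with another gene, and their counts are uncertain. The spans of 1 pair of members overlap, on opposite strands of chromosome 1 (111849998 to 113527735 and 112158519 to 112811936). The files do not state that counting used strand in all libraries. Members were spread unevenly, with 14 among 951 genes tested on chromosome 2, 13 among 786 on chromosome 4 and 1 among 1116 on chromosome 10.

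Per exon length, the members stood high among the genes tested. Their median level was 15.5 CPM per kb of exon, against 8.31 over all genes tested, and 66 of 105 lay above that value. The medians per kb by class of span were 6.55 for the 4049 genes under 10 kb, 8.63 for 10 to 100 kb, 11.2 for 100 to 250 kb and 12.7 for 250 to 500 kb. They were 14.4 for the 93 members under 1 Mb and 24.9 for the 12 members of 1 Mb or more. Within the members, the level per kb showed no trend with span (Spearman -0.0096 across genes). Counts were concentrated in few of them, with 49.0% of all member counts in 10 genes.

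The member with the highest level per kb, on chromosome 1 at 27476375 to 28159290, has 7 exon blocks and only 0.736 kb of exon. Its level per kb was 322 ± 64 CPM in FS, 357 ± 37 in FC, 349 ± 18 in MS and 353 ± 23 in MC (SD, n = 4). The chromosome 7 gene at 50084060 to 50638798 followed with 256 ± 26, 266 ± 32, 275 ± 42 and 313 ± 59 CPM per kb in the same order of groups. In FC every library of the first gene lay above every library of the second, while in the other groups the libraries of the genes overlapped.

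The next 3 were a chromosome 2 gene (17616401 to 18128512), a chromosome 1 gene (156552328 to 157269747) and a chromosome 6 gene (57516713 to 58277279), with means of 201, 159 and 159 CPM per kb. Of these 3 the chromosome 6 gene varied most, with a coefficient of variation of 21.8% within groups. Before division by length it ran from 728 to 1501 CPM in control females and from 819 to 1570 CPM in control males. Its range was narrower in the stressed groups. The sixth to eighth lay on chromosome 2 (83393282 to 84094315 and 262914327 to 263650441) and chromosome 3 (85421426 to 86819375), with 116, 109 and 109 CPM per kb. None of the 8 passed the test in any comparison below. The largest share of member counts, 9.36%, went to a gene on chromosome 4 at 16454904 to 17058921, chosen after its values were seen, which has 16.6 kb of exon.

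Spread between libraries of a group was close to that of all genes tested with the same minimum level, not matched further on level. The coefficient of variation within groups had a median of 13.3% over the 92 members with at least 10 CPM, against 13.6% over the 8877 genes tested at that level. At that level the members with the smallest dispersion in edgeR were a chromosome 14 gene (28393394 to 28967980), a chromosome 6 gene (64297888 to 64864996) and the widest member on chromosome 15. The widest member shares exon bases with another gene, so its counts are uncertain. The chromosome 14 gene kept to 238 to 292 CPM over all 16 libraries. The largest dispersion was that of genes on chromosome 2 (3400977 to 4088989), chromosome 1 (18491384 to 19143269) and chromosome 13 (67799791 to 68360664). The chromosome 2 gene ran from 48.6 to 127 CPM within the control females alone.

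Together the members took about the same share of nuclear counts in each group. It was 1.55% ± 0.056 in FS, 1.54% ± 0.071 in FC, 1.55% ± 0.040 in MS and 1.65% ± 0.11 in MC (SD, n = 4). In females the stressed libraries had 1.487%, 1.609%, 1.529% and 1.588% and the controls 1.547%, 1.599%, 1.564% and 1.434%, so the groups overlapped. In males the stressed libraries had 1.497%, 1.543%, 1.593% and 1.562%. The male controls had 1.770%, 1.640%, 1.505% and 1.683%, and 3 of the 4 lay above every stressed male, while male control 3 lay among them. In bulk RNA fewer cells of a type and less RNA per cell cannot be told apart. The share is a sum over chosen genes and was given no test.

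**Figure D1:**
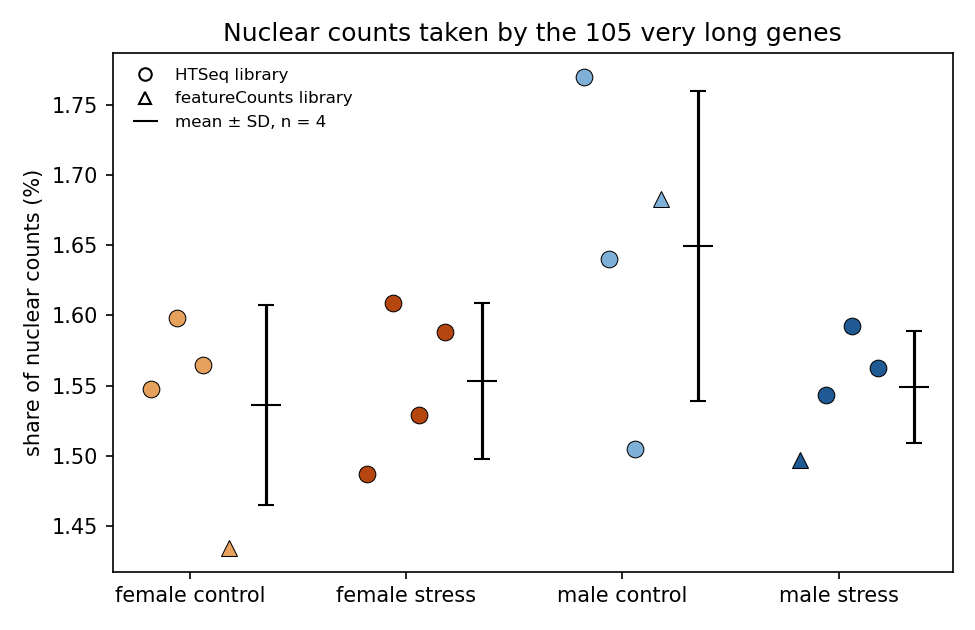
Share of nuclear counts (%, y axis, not starting at 0) taken by the 105 very long genes in each library, by group (x axis), with circles for HTSeq and triangles for featureCounts libraries and bars for the mean ± SD (n = 4). Female groups overlap, and male control 1 is highest at 1.77%.

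Within a group, some libraries had most members on 1 side of the group mean, by small amounts. In male control 1, 69 of the 105 lay above their group mean, with a median log2 deviation of 0.09, against -0.0045 over all genes tested. Female stress 1 had the lowest median, -0.10, with 70 of 105 below their group mean. Male control 3 (-0.07) and female control 4 (-0.07) followed. Genes of 250 to 500 kb deviated in the same direction as the members in 11 of the 16 libraries. The pooled SD of the members' medians over single libraries of a group was 0.0526.

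**Figure D2:**
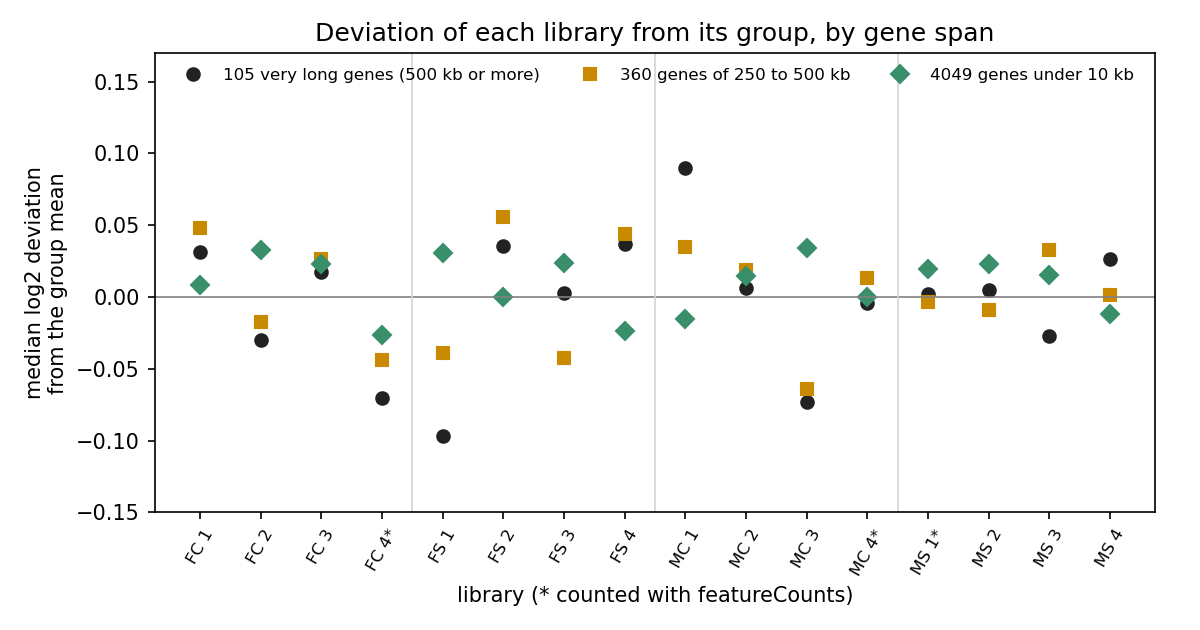
Median log2 deviation of each library from its group mean (y axis) for the members, for 360 genes of 250 to 500 kb and for 4049 genes under 10 kb, with libraries on the x axis. Male control 1 is highest for the members (0.09) and female stress 1 lowest (-0.10).

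Stress against control asks which members differed between stressed and control rats of a sex. In females none of the 105 passed edgeR's quasi-likelihood test at an adjusted p under 0.05, where 0.0636% of all genes tested did. DESeq2 and limma voom called 0 as well. At an unadjusted p under 0.05 there were 7 members, 6.67% against 6.5% of all genes. The median log2 fold change was 0.06 against 0.0020 over all genes, and 69 members lay above and 36 below 0. The median was 0.04 without female control 4, without female stress 4 and without all 3 featureCounts libraries, and 0.02 over the 41 members that keep 500 kb without their longest gap. Female stress 4 had 31.2% of its entries in the HTSeq line for no feature, against 14.997% to 17.3% in the other stressed females. Where only exons are counted, that line can hold reads from introns. In female stress 4, 69.6% of gene counts were mitochondrial, the lowest of its group. The part of these differences in the result was not tested.

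The smallest p in females belonged to a chromosome 5 gene at 81179605 to 82168427, with a span of 989 kb. Its stressed libraries had 26.5, 19.4, 27.6 and 20.8 CPM and its controls 19.7, 12.6, 17.9 and 18.2 CPM. All but 1 of the stressed libraries thus lay above every control, and the log2 fold change was 0.46 (SE 0.18, adjusted p = 0.708 by edgeR). A chromosome 9 gene at 3127618 to 3697736 had 0.490, 1.54, 2.03 and 2.59 CPM in stressed and 3.43, 2.89, 4.06 and 2.75 CPM in control females. The groups did not overlap, but at 4 counts in the lowest library the log2 fold change of -0.97 had an SE of 0.45 (adjusted p = 0.753 by edgeR). Another low gene, on chromosome 6 at 138054662 to 138662511, had 2.67 ± 0.40 CPM in FS and 1.47 ± 0.60 CPM in FC (SD, n = 4).

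Groups that did not overlap were found for 3 members higher (2.86%, against 1.65% of all genes) and 1 lower (0.952%, against 1.63%) in stressed females. The 3 higher ones were small in size, such as the chromosome 4 gene at 10995234 to 11610518. It had 140, 144, 149 and 151 CPM in stressed and 138, 114, 127 and 132 CPM in control females (log2 fold change 0.19, SE 0.11, adjusted p = 0.794 by edgeR). It is 1 of the 7 members that share exon bases with another gene. The other two were the steady chromosome 14 gene, with a log2 fold change of 0.10, and a chromosome 20 gene (25064702 to 25826658, named after its values were seen) with 0.28.

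In males also, 0 of the 105 members passed edgeR's test, where 0.127% of all genes tested did. DESeq2 called 1 member, where it called 0.228% of all genes, and limma voom called 0. At an unadjusted p under 0.05 there were 13 members (12.4%, against 7.73% of all genes), 9 of them lower and 4 higher with stress. The median log2 fold change was -0.07 against 0.0034 over all genes, and 68 members lay below and 37 above 0. Without male control 1 the median was -0.03, and it was -0.12 over the 41 members that keep 500 kb without their longest gap. Stressed males had 78.2% ± 3.0 of gene counts on mitochondrial genes and control males 74.9% ± 3.1 (SD, n = 4). Entries in the HTSeq line for no feature, which can hold reads from introns, also differed. They were 13.1% to 14.0% in the stressed and 16.6% to 22.0% in the control males counted with HTSeq. The part of these differences in the male result was not tested.

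The smallest p in males was that of a gene on chromosome 8 at 29453643 to 29962825, which has 8 exon blocks and 1.89 kb of exon. Stressed males had 125, 157, 139 and 148 CPM and control males 202, 169, 199 and 217 CPM, so every stressed library lay below every control. The log2 fold change was -0.47 (SE 0.12, adjusted p = 0.188 by edgeR). DESeq2 called it at an adjusted p of 0.0470, and edgeR with no filter on low counts called it at 0.0461. In females the same gene had 145 ± 9.5 CPM under stress and 152 ± 26 CPM in controls (SD, n = 4), a log2 fold change of -0.06. The difference between the sexes, 0.41 (SE 0.16), had an adjusted p of 1.0 by edgeR's test.

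Lower in all 4 stressed males than in all 4 control males were 6 members (5.71%, against 2.34% of all genes), and 0 were higher in that way (2.99% of all genes). Besides the chromosome 8 gene they were the chromosome 13 gene at 6679368 to 7537275, the chromosome 6 genes at 64297888 to 64864996 and 112133204 to 114067564, the chromosome 7 gene at 92993330 to 93502591 and the chromosome 4 gene at 60549197 to 61355994. The last 2 were named after their values were seen. The chromosome 13 gene had 28.8, 31.1, 22.4 and 25.9 CPM in stressed and 32.5, 33.4, 37.7 and 43.4 CPM in control males (log2 fold change -0.44, SE 0.18, adjusted p = 0.521 by edgeR). For the chromosome 6 gene that begins at 112133204, with a span of 1934 kb, the stressed males had 324, 403, 445 and 443 CPM and the controls 465, 461, 467 and 523 CPM. The gap between its groups was thus narrow, and its log2 fold change was -0.25 (SE 0.12, adjusted p = 0.617 by edgeR).

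On the higher side in males, the chromosome 8 gene at 23492621 to 24074536, which shares exon bases with another gene, differed by 0.32 in log2 fold change (SE 0.13, adjusted p = 0.564 by edgeR). Its stressed libraries had 36.2, 30.8, 29.0 and 27.3 CPM and its controls 23.3, 23.5, 24.8 and 27.4 CPM. The lowest stressed library thus lay just under the highest control. A chromosome 13 gene at 42265806 to 42885440 had 35.7, 29.2, 33.4 and 30.5 CPM in stressed and 32.1, 20.8, 25.5 and 19.4 CPM in control males, with 1 control among the stressed libraries.

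Over both sexes together, the average stress effect was called for 0 of the 105 members, where 0.339% of all genes tested passed. DESeq2 and limma voom also called 0. Of the members, 16 (15.2%) had an unadjusted p under 0.05, against 10.1% of all genes, 10 lower and 6 higher. The median log2 fold change was -0.0059, with 50 members above and 55 below 0, and its sign turned without TMM factors (0.0076) and without female control 2 or 3 or male control 1 or 4 (at most 0.0090). No member had groups apart in the same direction in both sexes, where 0.134% of all genes did upward and 0.106% downward.

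The member with the smallest p on average was ENSRNOG00000007636 (chromosome 4, 50326442 to 50860756, 30 exon blocks). Stressed females had 12.4, 15.5, 16.0 and 17.9 CPM and control females 16.6, 22.1, 16.4 and 22.4 CPM. Stressed males had 11.4, 15.1, 7.78 and 11.9 CPM and control males 17.6, 14.98, 16.8 and 34.4 CPM. Stress values lay low in both sexes with some overlap, and the highest value came from male control 4, a featureCounts library. The average log2 fold change was -0.60 (SE 0.17, adjusted p = 0.151 by edgeR), and -0.38 without the 3 featureCounts libraries.

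ENSRNOG00000021938 (chromosome 4, 110699557 to 111497643) has 4 exon blocks and a single gap of 99.2% of its span. It had 67.4, 65.3, 53.9 and 73.8 CPM in stressed and 65.8, 78.2, 75.1 and 77.2 CPM in control females. In males the values were 58.8, 69.4, 59.7 and 59.4 CPM under stress and 80.9, 80.003, 69.1 and 87.2 CPM in controls. One stressed male, replicate 2, lay just above the lowest control, and the others lay below all controls. The average log2 fold change was -0.27 (SE 0.08, adjusted p = 0.201 by edgeR).

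Among members with higher values, ENSRNOG00000004201 (chromosome 7, 78092037 to 78594138, 33 exon blocks) had the smallest p on average. It had 227, 231, 264 and 222 CPM in stressed and 250, 166, 207 and 136 CPM in control females, and 252, 238, 181 and 205 CPM in stressed and 201, 182, 166 and 153 CPM in control males. The log2 fold change was 0.32 in each sex (SE 0.14), and the average was 0.32 (SE 0.10, adjusted p = 0.243 by edgeR). The lowest control of each sex was its featureCounts library, and the highest stressed male was the third such library. Without those 3 the average was 0.18.

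ENSRNOG00000018931 (chromosome 9, 93660680 to 94160760), the member with the shortest span, had 25.3, 28.4, 23.8 and 34.4 CPM in stressed and 19.8, 20.9, 27.1 and 19.5 CPM in control females. Males had 28.0, 20.97, 24.4 and 27.4 CPM under stress and 23.3, 21.2, 17.9 and 18.1 CPM in controls. In each sex 1 library stood out of order. Its log2 fold changes of 0.36 in females and 0.33 in males averaged 0.34 (SE 0.11, adjusted p = 0.265 by edgeR).

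**Figure D3:**
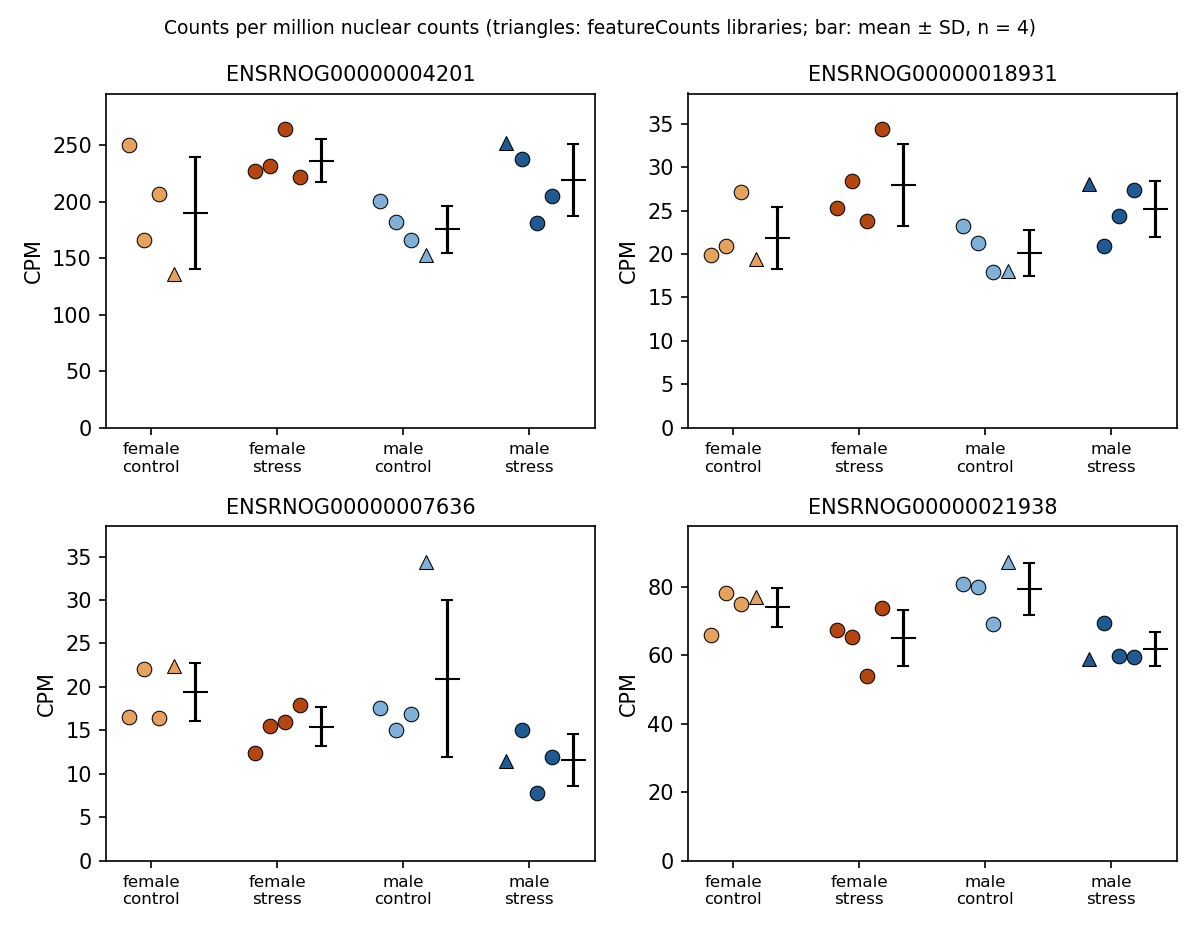
Level in CPM (y axis, from 0) of the 4 members named by identifier in every library, by group (x axis), with triangles for featureCounts libraries and bars for the mean ± SD (n = 4). The upper panels show genes with a log2 fold change of 0.32 and 0.34 on average, and the lower panels genes with -0.60 and -0.27; none passed the adjusted threshold.

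Females and males were set side by side through the difference of the stress effect. It was called for 0 of the 105 members and for 0% of all genes tested. At an unadjusted p under 0.05 there were 5 members, 4.76% against 4.05% of all genes. DESeq2 and limma voom called 0 members. The median difference, female minus male, was 0.14 against 0.0019 over all genes, and 78 of 105 members lay above 0. Genes of 100 to 250 kb and of 250 to 500 kb leaned the same way, with medians of 0.06 and 0.07. In those classes 62.7% and 64.4% of genes lay above 0. Genes under 10 kb had a median of -0.06. By direction, 36 members were higher with stress in females and lower in males (34.3%, against 21.4% of all genes), and only 4 the reverse (3.81%, against 21.5%). Both sexes were above 0 for 33 members and below 0 for 32. These counts describe signs, most of them of values smaller than their SE.

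Set against each other across the 105 members, the female and male log2 fold changes correlated at 0.54 (Pearson) and 0.50 (Spearman). Across all genes tested the values were 0.16 and 0.17. Over the 92 members with at least 10 CPM they were 0.47 and 0.46, and over all genes tested at that level 0.32 and 0.27. The sexes share no library but share the counting tools, with 1 featureCounts control library each and 1 featureCounts stressed library in males. Without the 3 featureCounts libraries the values over the 105 members were 0.30 and 0.21, and no value over all genes is given for that setting. The correlations are across genes, which are not independent, and describe these libraries only.

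**Figure D4:**
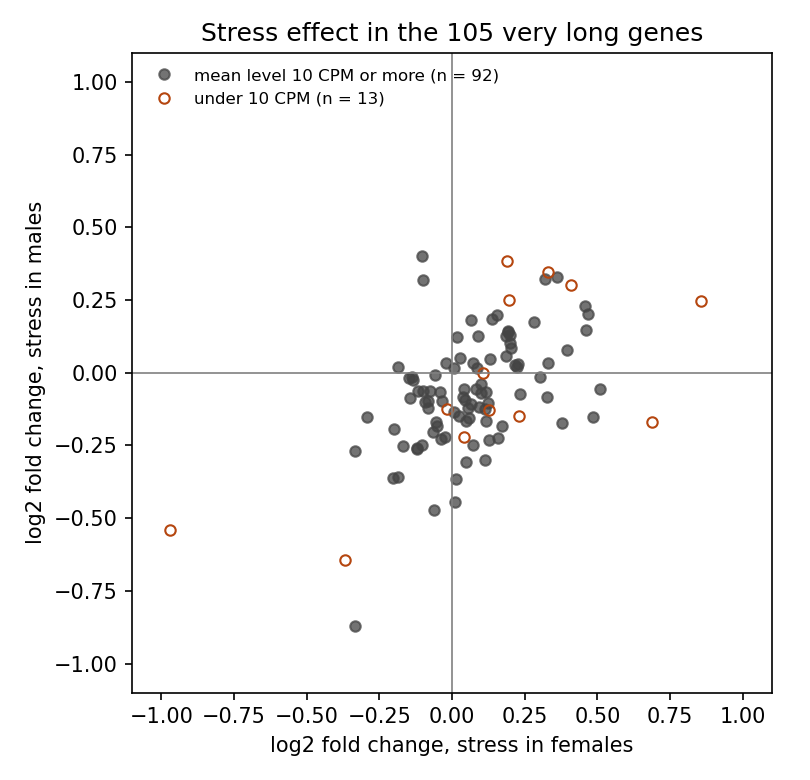
Log2 fold change of stress in females (x axis) and in males (y axis) for each of the 105 members, with filled points for the 92 at 10 CPM or more and open points for the 13 below. The lower right quadrant (higher in females, lower in males) holds 36 members and the upper left 4.

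By class of span, the medians for females ran from -0.03 under 10 kb through 0.0049 at 10 to 100 kb and 0.05 at 100 to 250 kb and at 250 to 500 kb to 0.08 at 500 kb to 1 Mb, and stood at 0.03 for the 12 members of 1 Mb or more. In males they were 0.04, -0.0031, 0.0020, -0.03, -0.07 and -0.07. From the shortest class to 500 kb to 1 Mb the medians thus went up in females, apart from the classes at 0.05, and down in males, apart from the class at 0.0020. Without the 3 featureCounts libraries the median of the members under 1 Mb in females lay below that of genes of 100 to 250 kb. The female medians were then 0.0496 at 100 to 250 kb, 0.0236 at 250 to 500 kb and 0.0355 at 500 kb to 1 Mb. The male medians of the last 2 of these classes were then -0.02 and -0.09. Within the members the Spearman correlation of span with the log2 fold change was -0.12 in females and -0.15 in males. The class of 1 Mb or more holds under 20 genes, and its value rests on few of them.

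**Figure D5:**
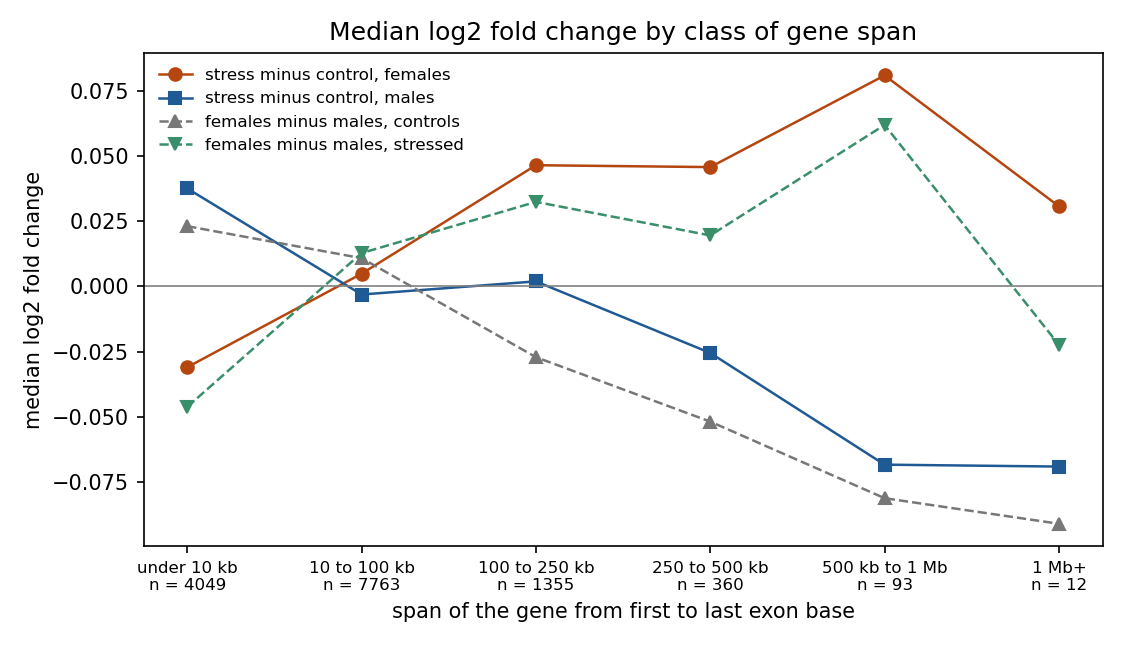
Median log2 fold change (y axis) by class of gene span (x axis, with the number of genes tested on chromosomes 1 to 20) for stress in each sex and for females minus males in controls and in stressed rats. From the shortest class to 500 kb to 1 Mb, medians go from -0.03 to 0.08 for stress in females and from 0.04 to -0.07 in males.

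Comparing females with males among controls, none of the 105 members was called, where 0.113% of all genes tested were. DESeq2 and limma voom called 0 members, and 6 had an unadjusted p under 0.05 (5.71%, against 6.29%), all lower in females. Groups were apart for 0 members higher (1.79% of all genes) and 2 lower in females (1.90%, against 1.64%), the chromosome 6 gene at 64297888 and the chromosome 1 gene at 111849998. The median log2 fold change, female minus male, was -0.08 against 0.0052 over all genes, and 74 members lay below 0. Among the 12 members of 1 Mb or more, 8.33% lay above 0. This comparison uses the same control libraries as the stress comparisons, so their values are not independent of those above. Without male control 1 the median was -0.04, and without female control 4 it was -0.05.

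The widest difference among controls was that of the low chromosome 6 gene at 138054662 to 138662511, which has 36 exon blocks and 12 other genes inside it. Control females had 1.19, 1.02, 2.36 and 1.30 CPM and control males 4.92, 4.69, 4.33 and 1.98 CPM, with male control 4 within the female range. The log2 fold change was -1.41 (SE 0.37, adjusted p = 0.343 by edgeR). Stressed females, at 2.45, 3.07, 2.93 and 2.22 CPM, all lay below stressed males, at 4.83, 5.76, 4.18 and 3.87 CPM. Their log2 fold change was -0.81 (SE 0.35, adjusted p = 0.866 by edgeR).

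In stressed rats 0 members were called for females against males, where 0.0918% of all genes tested were. DESeq2 and limma voom called 0, and 6 members had an unadjusted p under 0.05 (5.71%, against 5.66% of all genes). The median log2 fold change was 0.06 against 0.0025 over all genes, with 66 members above 0. It was 0.03 without female stress 2, without female stress 4 and without male stress 1, and 0.04 without the 3 featureCounts libraries. Over the 41 members that keep 500 kb without their longest gap it was -0.01. Groups were apart for 1 member higher (0.952%, against 1.74%) and 3 lower in females (2.86%, against 2.05%). One of the 3, on chromosome 6 at 144384773 to 145133042 and named after its values were seen, had 195 ± 15 CPM in FS and 234 ± 13 CPM in MS (SD, n = 4). In FC and MC it had 207 ± 20 and 254 ± 35 CPM, the same direction with overlapping libraries.

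By group, the highest mean of a member was most often that of MC (41 of 105, against 24.7% of all genes tested) or FS (39, against 25.9%). It was that of MS in 17 (24.8% of all genes) and of FC in 8 (24.6%). Without male control 1 the numbers were 38 for MC, 40 for FS, 19 for MS and 8 for FC. In the HTSeq libraries alone they were 38, 37, 15 and 15.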

How the data were processed

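RNA of the nucleus basalis of Meynert was sequenced in 16 libraries. Per the labels' protocols these were NuGen Ovation v2 libraries from total RNA, read as paired ends. The genome build was Rnor_6.0 and the tools listed were HTSeq, STAR 2.5.2a, limma, DESeq and bedtools, per the submitters' processing notes. The authors deposited raw counts per Ensembl gene. For 3 libraries, per the file headers, they come from featureCounts 1.6.1 with Ensembl release 92, without a paired-end or strand option. In the other files the lines that name no gene, 44.8% to 64.7% of entries, were left out. Replicates were numbered in accession order.

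Mitochondrial genes (64.2% to 82.5% of counts) were removed. The filterByExpr filter left 14158 nuclear genes, which were fitted with 4 group means by edgeR 4.0.16 (R 4.3.3, TMM, robust quasi-likelihood), with Benjamini-Hochberg adjustment over all genes. DESeq2 1.42.0 and limma 3.58.1 were alternatives, as were other scalings, no filter and left-out libraries. The fit was tested on simulated data with planted changes larger than any member showed in the stress comparisons. That test does not show how well changes of the members' size are found. SE is that of a log2 fold change. Members were eligible to be named as the 5 with the smallest p per direction in each stress comparison. Also eligible were the 8 highest per kb, the 5 widest, and the 3 most and 3 least variable. Not all of these are described, and others are said to be chosen later. The members and lists were chosen with earlier results of these data known. Lists of named genes could not be applied without gene names. Sequences were not used here.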

Additional observations from a re-analysis of the deposited data

Results flagged for a closer look

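Among 140 groups of 4 libraries screened, 7 held a library far from the other 3, where chance gives about 1 in 20. The number flagged was thus about what chance gives, and the libraries below are only listed. The groups were 4 for the share of nuclear counts and those of the 34 members eligible to be named. In male control 4, ENSRNOG00000007636 had 34.4 CPM against 14.98 to 17.6 CPM, and the chromosome 6 gene at 112133204 to 114067564 had 523 CPM against 461 to 467 CPM; this library was counted with featureCounts. Female control 2 had 126 CPM against 87.2 to 91.4 CPM for the chromosome 1 gene at 112158519 to 112811936 and 417 CPM against 282 to 300.3 CPM for the chromosome 3 gene at 85421426 to 86819375. In female stress 4 the chromosome 13 gene at 67799791 to 68360664 had 37.7 CPM against 14.0 to 17.4 CPM. ENSRNOG00000021938 had 69.4 CPM in male stress 2 against 58.8 to 59.7 CPM. The chromosome 1 gene at 27476375 to 28159290 had 237 CPM in male stress 3 against 263.2 CPM in each of the others.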

How the results depend on the processing

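No paired analysis was possible because replicate numbers were given in accession order and pair no samples. With no filter on low counts edgeR called 2 members in males (0.334% of all genes) and 1 on average (0.794%). ENSRNOG00000007636 was called in both (log2 fold change -0.88, adjusted p = 0.00539, and -0.62, adjusted p = 0.00278), and the chromosome 8 gene at 29453643 to 29962825 in males (-0.48, adjusted p = 0.0461). DESeq2 called 1 in males. All other settings run called 0 members. Each library of the groups compared was left out in turn in all 6 comparisons. RLE factors, mitochondrial genes included, no filter, the counting tool as a covariate and spans of 1 Mb or more were run for stress in females, in males and on average only. Over the left-out libraries the median log2 fold change ran from 0.04 to 0.09 in females, -0.10 to -0.03 in males, -0.03 to 0.0090 on average, 0.11 to 0.18 for the difference, -0.11 to -0.04 in controls and 0.03 to 0.07 in stressed rats. Over the 41 members that keep 500 kb without their longest gap, an alternative chosen after seeing the data, it was 0.02 in females, -0.12 in males, -0.03 on average and -0.01 (-0.012) in stressed rats.

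The share in FS, FC, MS and MC was by construction lower as a share of all gene counts (0.397%, 0.402%, 0.339% and 0.413%), without the most counted member (1.41%, 1.39%, 1.40% and 1.49%), for spans of 1 Mb or more (0.242%, 0.238%, 0.244% and 0.259%) and for the 41 members (0.587%, 0.589%, 0.597% and 0.639%). Without TMM factors the medians for 10 to 100 kb were 0.03 (0.0273) in females and 0.02 (0.0173) on average. A fit of only the groups compared does not exist for effects over both sexes. The median SE of a member was 0.15 within a sex, which limits what 4 libraries a group can show.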
